A study of Mus musculus with 19 samples.

Results

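Wls and 8 other Wnt signalling genes (Wnt3a, Wnt6, Wnt7b, Lrp6, Axin1, Axin2, Ctnnb1 and Tcf7l1) were followed through 19 single mouse embryos. They are 9 of the 53379 gene rows of the deposited count table, taken by gene name, and each name matched 1 row. Wls was chosen by its adjusted p for how the difference of blastocysts against morulae differs between the crosses, where it was the 1 gene called. Its values across those embryos are therefore given here as a description without a test. The other 8 genes were chosen as named parts of the same pathway.

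Wnt proteins are lipid-modified signals. Wls (Wntless) is the membrane carrier that takes them from the secretory pathway to the surface of the cell that makes them. At the receiving cell, a Wnt binds a Frizzled receptor together with the co-receptor Lrp6, which draws Axin away from the complex that destroys beta-catenin, the product of Ctnnb1. Stabilised beta-catenin acts with TCF/LEF factors, among them the repressor Tcf7l1, and Axin2 is a widely used target that feeds back on the pathway. In the preimplantation embryo, inner cell mass and trophectoderm, the outer layer that forms the placenta, separate between the morula and the blastocyst.

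The study compared embryos that lack Alyref, which helps to export mRNA, or Gabpb1, which encodes the beta chain of the ETS-family factor GABP, with their siblings. All embryos were B6D2F1, came from in vitro fertilisation, were cultured in KSOM medium at 37 °C under 5% CO2 and were collected 96 hours after insemination. Morulae and blastocysts were therefore of the same age, so a difference between them is not a time course. Crosses of Alyref+/- parents gave 5 morulae, 2 of them Alyref KO and 3 non-KO, and 3 blastocysts, all non-KO. Crosses of Gabpb1+/- parents gave 5 morulae as well, 3 of them labelled Gabpb1 KO and 2 non-KO, and again 3 non-KO blastocysts. Non-KO embryos are WT or heterozygous, and 3 blastocysts came from WT parents. KO embryos were identified by the submitters from the absence of reads over the deleted region in the same libraries, and none of the blastocysts was labelled KO. The labels name neither the parents of each embryo nor the fertilisation session, so cross and session cannot be told apart, and p-values measure the spread between these embryos.

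Gene counts per embryo ranged from 7.49 to 31.5 M (mega-counts), with a median of 13.6 M. Levels are given as CPM, counts for each M of gene counts, scaled by TMM. Alyref stood at 48.1 and 58.8 CPM in the Alyref KO morulae and at 162 to 293 CPM in their non-KO siblings at that stage. Gabpb1 stood at 78.7, 261 and 151 CPM in the morulae labelled Gabpb1 KO and at 94.4 and 83.8 CPM in their non-KO counterparts. The level over the whole gene therefore was not lower in the embryos labelled Gabpb1 KO, and these are called "labelled Gabpb1 KO" throughout. All 12 trophectoderm markers examined were detected in every blastocyst, with sums of 6177 to 10025 CPM, against 394 to 5596 CPM in morulae. Markers of cumulus and granulosa cells summed to at most 0.901 CPM in any embryo. In a whole embryo, fewer cells of a type and less RNA per cell cannot be told apart.

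Wls lies on chromosome 3 (GRCm38, 159839672 to 159938664, plus strand), with 8792 bases of merged exons. The bases before its start are shown because the pattern described next concerns this gene, and those of Axin2 because it is the feedback target of the pathway. Both are RefSeq sequences of GRCm38.p6, plus strand, 250 bases up to the RefSeq start, and the capitals mark CpG dinucleotides. For Wls that start lies upstream of the gene start given above, which comes from the deposited table's annotation.
Wls, chr3:159839400-159839649: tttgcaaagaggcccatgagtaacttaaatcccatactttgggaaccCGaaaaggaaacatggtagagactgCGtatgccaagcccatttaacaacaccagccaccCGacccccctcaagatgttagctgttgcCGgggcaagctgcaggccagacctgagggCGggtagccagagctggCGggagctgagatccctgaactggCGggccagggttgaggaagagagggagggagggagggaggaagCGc
Axin2, chr11:108920099-108920348: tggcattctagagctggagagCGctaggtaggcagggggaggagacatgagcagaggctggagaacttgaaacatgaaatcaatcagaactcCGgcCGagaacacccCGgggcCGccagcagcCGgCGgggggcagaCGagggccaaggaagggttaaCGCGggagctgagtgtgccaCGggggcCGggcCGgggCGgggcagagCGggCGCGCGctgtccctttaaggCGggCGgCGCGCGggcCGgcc
The Wls window held 8 CpG and 58% G or C. Axin2 held 24 CpG and 69.2% G or C, and the windows of Wnt3a, Wnt6, Ctnnb1 and Tcf7l1 held 28 to 43 CpG. Over all 32851 RefSeq windows the median was 6 CpG, and 59.7% held as few as Wls or fewer, so the Wls window was ordinary in this respect and those of the other 5 members were rich in CpG. RefSeq windows matched 6 of the 9 members, Ctnnb1 with 2 starts. TCF/LEF letters (CTTTGAT or CTTTGAA), the TEAD letters CATTCC and the GABP letters CCGGAAG were searched on both strands from 250 bases before to 50 after each start, and none occurred in these windows. Of all windows, 8.65%, 14.7% and 8.86% held them.

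Wls was nearly silent in the Alyref-cross morulae and in the morulae labelled Gabpb1 KO, but higher in the non-KO morulae of the Gabpb1 cross. Per length it stood there at 4.86 and 1.76 FPKM (counts per kilobase of exon and M of gene counts), not far above the filter for testing of 1 FPKM. In the Alyref cross, the 3 non-KO morulae stood at 0.437, 0.0848 and 0.456 CPM, from 8, 1 and 7 counts. The 2 non-KO morulae of the Gabpb1 cross stood at 41.6 and 15.3 CPM, from 581 and 200 counts. Both lie above all 8 of the other morulae, of which the highest was 2.79 CPM. The fitted log2 difference between these non-KO groups was 6.35 (SE 0.81).

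The KO morulae of both crosses were low in Wls, and their ranges overlapped. Alyref KO morulae stood at 2.52 and 1.41 CPM, and morulae labelled Gabpb1 KO at 0.606, 2.79 and 1.36 CPM. This is the 1 comparison of Wls whose compared groups hold none of the embryos on which it was chosen. The log2 difference, labelled Gabpb1 KO against Alyref KO, was -0.29 (SE 0.74, adjusted p = 0.877 in edgeR's quasi-likelihood test). Adjustment was by Benjamini-Hochberg over 18410 genes. The sign of the difference changed when the first embryo of either group was left out. The fit held all embryos, so the SE and adjusted p rest on an estimate of spread shared with the embryos that chose Wls. The test is therefore not independent of that choice. An SE of this size leaves room for differences of more than 2-fold in either direction.

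Against their own non-KO morulae, the KO groups went opposite ways. Alyref KO morulae were higher by 2.47 on the log2 scale (SE 0.80), with every KO embryo above every non-KO embryo. Morulae labelled Gabpb1 KO differed by -4.17 (SE 0.72), with every embryo below both non-KO embryos. Both values rest on the non-KO morulae whose levels chose the gene.

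Wls was detected in every blastocyst, at 0.446 to 3.225 FPKM. The 3 Alyref-cross blastocysts stood at 16.1, 26.1 and 6.39 CPM, all above the morulae of that cross. The 3 Gabpb1-cross blastocysts stood at 3.81, 4.76 and 10.2 CPM, all below the non-KO morulae of that cross. WT blastocysts stood at 17.0, 17.1 and 29.3 CPM, above all 3 Gabpb1-cross blastocysts and overlapping the Alyref-cross blastocysts. The log2 difference of blastocysts against non-KO morulae was 5.54 (SE 0.77) in the Alyref cross and -2.18 (SE 0.67) in the Gabpb1 cross.

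The difference between these stage differences, -7.72 (SE 1.01), is the value that chose Wls. It was selected at an adjusted p of 0.0218 in edgeR's quasi-likelihood test, and the genes just outside the threshold of 0.05 were Top2b (-2.89), Ctsb (-1.99) and Nanog (2.14), each at 0.12. The value for Wls ran from -8.35 to -6.83 over 26 alternative settings. Wls would not have met the threshold that chose it without Alyref-cross non-KO morula 1 or 2, Alyref-cross blastocyst 1 or 2, or Gabpb1-cross blastocyst 1 or 2, each left out alone, nor with the replicate block or the compared groups fitted alone.

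By group mean, the order of Wls levels ran from non-KO morulae of the Gabpb1 cross (28.4 CPM ± 18.6, SD, n = 2) through WT blastocysts (21.1 ± 7.06, n = 3), Alyref-cross blastocysts (16.2 ± 9.88, n = 3) and Gabpb1-cross blastocysts (6.26 ± 3.45, n = 3). Below them came Alyref KO morulae (1.97 ± 0.788, n = 2), morulae labelled Gabpb1 KO (1.58 ± 1.11, n = 3) and Alyref-cross non-KO morulae (0.326 ± 0.209, n = 3). The embryos of the first 3 groups overlap, as do those of Alyref-cross and Gabpb1-cross blastocysts and those of the 2 KO groups. Every embryo of the 3 lowest groups, at 2.79 CPM or less, was below every embryo of the 4 highest, at 3.81 CPM or more.

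**Figure D1:**
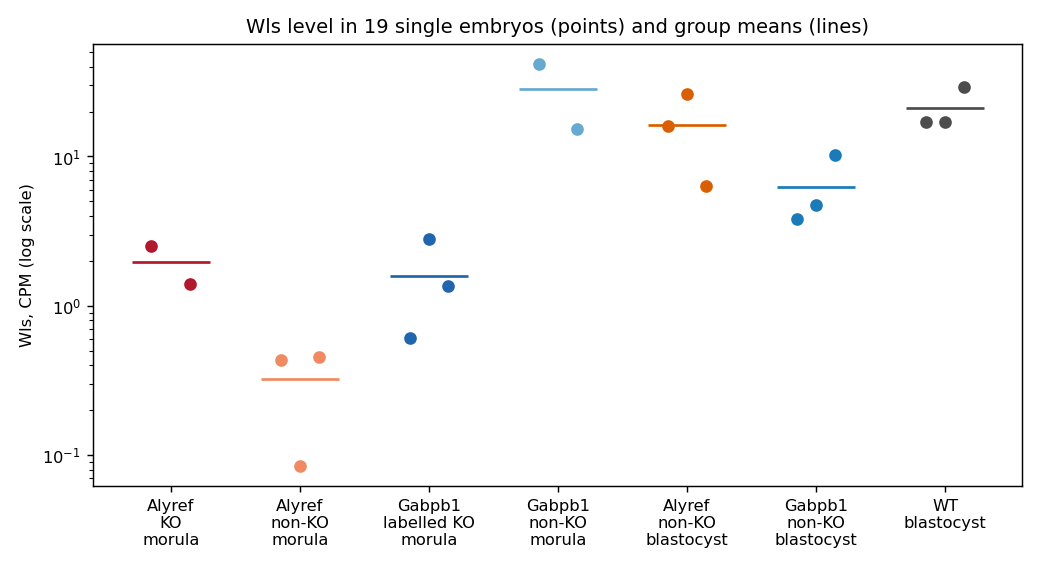
Wls level in CPM on a log axis, 1 point per embryo and a line at the mean of each group. Non-KO morulae of the Gabpb1 cross (41.6 and 15.3 CPM) sit with the blastocysts, while the 8 other morulae lie at 2.79 CPM or lower.

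The morulae that were high in Wls were also the morulae with the most trophectoderm marker RNA. The 12 markers (Cdx2, Krt8, Krt18, Gata3 and 8 others) summed to 5596 and 3559 CPM in the Gabpb1-cross non-KO morulae and to 824, 717 and 2602 CPM in the Alyref-cross non-KO morulae. The sums were 1802 and 840 CPM in Alyref KO morulae and 3412, 394 and 1256 CPM in morulae labelled Gabpb1 KO. The first morula labelled Gabpb1 KO had a marker sum of 3412 CPM, close to the 3559 CPM of a non-KO morula, yet 0.606 CPM of Wls against 15.3 CPM. Among blastocysts, the Gabpb1-cross sums of 6271 to 7596 CPM overlap those of the Alyref cross, from 6177 CPM. The part of trophectoderm content in the Wls differences was not tested.

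**Figure D2:**
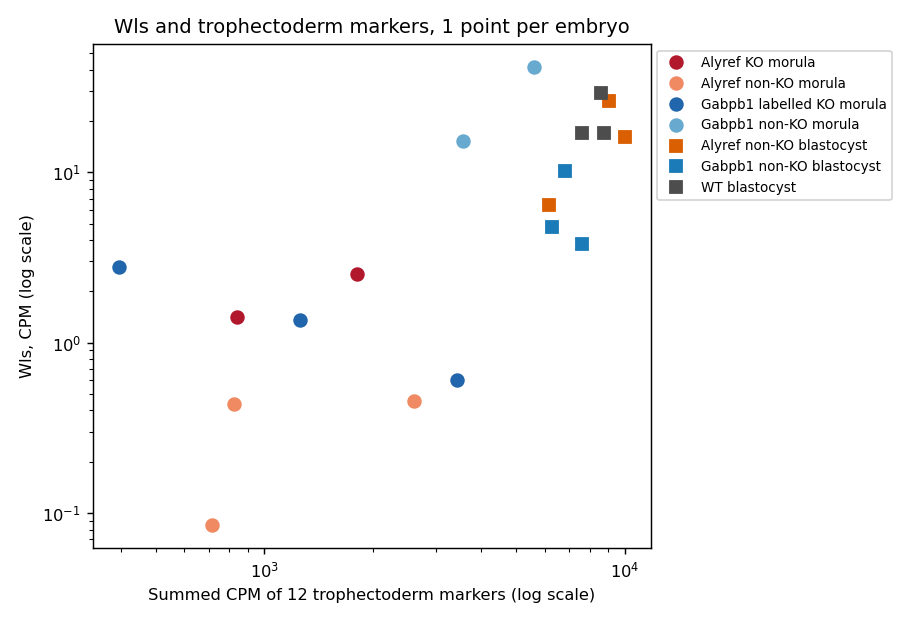
Wls level against the summed level of 12 trophectoderm markers, both in CPM on log axes, 1 point per embryo (circles, morulae; squares, blastocysts). Both Gabpb1-cross non-KO morulae are higher in Wls than the labelled Gabpb1 KO morula that has 3412 CPM of markers and 0.606 CPM of Wls.

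Genes whose pattern was most like that of Wls were ranked by Pearson's r of log2(CPM + 1) over the 19 embryos, among 8364 genes with a mean of at least 5 FPKM (counts per kilobase of exon and M of gene counts). The first was Lta4h, encoding leukotriene A4 hydrolase, at r = 0.894, followed by Xlr4b (0.871), Ska2 (0.871), the pseudogene Xlr4e-ps (0.864) and Xlr4c (0.863). The 3 Xlr4 genes are near-identical copies on the X chromosome that can share reads, so they may not be separate observations. Lta4h followed Wls in standing higher in the Gabpb1-cross non-KO morulae (44.0 to 58.5 CPM) than in any other morula group (13.7 to 35.6 CPM). It did not follow it between non-KO morulae and blastocysts of the Gabpb1 cross, where the means were 51.3 and 51.5 CPM. The r values share libraries and the contrast between stages, and are a description.

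Among the ligands, Wnt3a and Wnt7b were higher in every blastocyst than in every morula. The morulae included KO embryos and the blastocysts none. How many of all genes separate in this way was not computed. Wnt3a is a ligand of the beta-catenin branch, on chromosome 11 (59248033 to 59290752, minus strand). Its 9 blastocysts lay at 12.03 CPM or more and its 10 morulae at 9.94 CPM or less. Wnt7b, on chromosome 15 (85535439 to 85581821, minus strand), lay at 33.0 CPM or more in blastocysts and at 32.5 CPM or less in morulae, so that the gap is narrow. The difference in each cross was tested separately.

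In the Alyref cross, Wnt7b was measured at 6.55, 2.21 and 22.8 CPM in the non-KO morulae and at 43.7, 46.1 and 46.8 CPM in the blastocysts, and the groups do not overlap. The log2 difference was 2.11 (SE 0.72; adjusted p = 0.0617), which missed the threshold. In the Gabpb1 cross the morulae held 32.5 and 13.4 CPM and the blastocysts 44.7, 33.0 and 106 CPM, and the log2 difference of 1.42 (SE 0.81; adjusted p = 0.789) did not pass either. WT blastocysts held 61.7, 45.2 and 44.6 CPM, within the range of the other blastocysts.

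Wnt3a stood at 2.57, 2.29 and 8.40 CPM in Alyref-cross non-KO morulae and at 14.4, 20.3 and 13.7 CPM in the blastocysts of that cross, again without overlap. The log2 difference was 1.87 (SE 0.78; adjusted p = 0.115). Gabpb1-cross non-KO morulae held 9.94 and 4.21 CPM and blastocysts 17.6, 12.03 and 25.2 CPM, a difference of 1.37 (SE 0.88; adjusted p = 0.820). Among the morulae labelled Gabpb1 KO the levels were uneven, at 7.01, 0.0931 and 2.71 CPM, where the second embryo gave 1 count. That embryo also had the lowest trophectoderm marker sum of all embryos, 394 CPM.

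Wnt6, a ligand on chromosome 1 (74771892 to 74785322, plus strand) that is known from trophectoderm and decidua, showed the largest fitted stage difference of the 8 genes in the Alyref cross. It was read at 1.26, 0 and 1.95 CPM in non-KO morulae and at 4.21, 8.99 and 3.63 CPM in blastocysts, a log2 difference of 2.35 (SE 0.93; adjusted p = 0.0982) that did not pass. The morula at 0 had no Wnt6 count among 13.6 M, which allows up to 3 counts. In the Gabpb1 cross, morulae at 6.73 and 1.15 CPM overlapped blastocysts at 9.03, 5.36 and 11.8 CPM. WT blastocysts reached 5.66, 15.5 and 13.5 CPM.

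In the KO comparisons the ligands differed by less than their SE or little more. Against non-KO morulae the log2 differences in Alyref KO were -0.62 for Wnt3a, 0.78 for Wnt6 and -0.01 for Wnt7b, with SEs of 0.89, 1.04 and 0.79. In morulae labelled Gabpb1 KO they were -1.11, -0.64 and -0.54, with SEs of 0.85, 0.98 and 0.77. None passed the test, and the signs of Wnt6 and Wnt7b in both comparisons, and of Wnt3a in the first, changed when 1 embryo was left out.

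**Figure D3:**
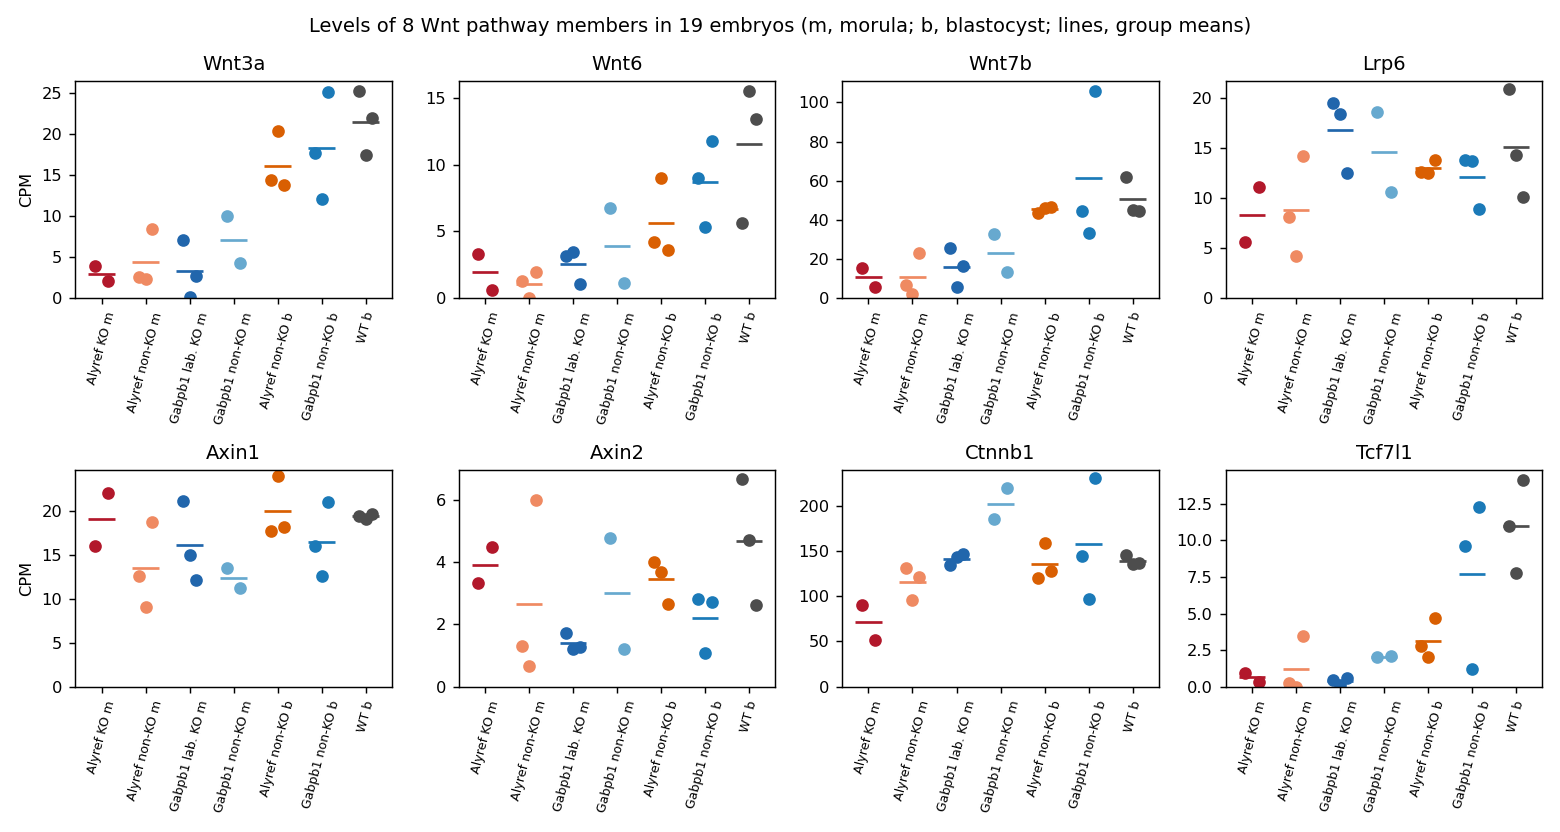
Levels in CPM (linear axes from 0) of the 8 members other than Wls, 1 point per embryo and a line at each group mean. Wnt3a and Wnt7b are higher in all 9 blastocysts than in all 10 morulae, while Axin1 and Lrp6 overlap between the stages.

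Lrp6, the co-receptor, lies on chromosome 6 (134446476 to 134566965, minus strand). Its level was 8.13, 4.16 and 14.2 CPM in Alyref-cross non-KO morulae and 12.6, 12.5 and 13.8 CPM in the blastocysts, which overlap. Gabpb1-cross non-KO morulae held 18.6 and 10.6 CPM and blastocysts 13.8, 13.7 and 8.95 CPM. The stage difference was 0.55 (SE 0.41) in the first cross and -0.27 (SE 0.46) in the second, and neither passed the test. Morulae labelled Gabpb1 KO held 19.6, 18.4 and 12.5 CPM, all above the Alyref KO morulae at 5.58 and 11.1 CPM, with a log2 difference of 1.00 (SE 0.48; adjusted p = 0.252).

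Ctnnb1, encoding beta-catenin, was the most abundant member per length, at a mean of 26.5 FPKM over the 19 embryos, and lies on chromosome 9 (120929216 to 120960507, plus strand). Alyref KO morulae held the least, 90.8 and 51.4 CPM. The Alyref-cross non-KO morulae held 131, 95.8 and 121 CPM, all higher, with a log2 difference of KO against non-KO of -0.71 (SE 0.31; adjusted p = 0.356). Morulae labelled Gabpb1 KO held 135, 143 and 147 CPM, all above both Alyref KO embryos.

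The difference between those KO groups was 1.00 on the log2 scale (SE 0.31), with an adjusted p of 0.0813 in edgeR's quasi-likelihood test and 0.0241 in DESeq2. It was also called without Gabpb1-cross blastocyst 2 or 3 (adjusted p = 0.0378 and 0.0395). Non-KO morulae differed in the same direction, with 186 and 219 CPM in the Gabpb1 cross, a log2 difference of 0.80 over the Alyref cross (SE 0.29; adjusted p = 0.136). The difference of the KO effects between crosses was 0.20 (SE 0.42; adjusted p = 0.872). Blastocysts did not separate: 120, 158 and 128 CPM in the Alyref cross, 144, 96.7 and 231 CPM in the Gabpb1 cross and 145, 135 and 137 CPM in WT. Ulk4 overlaps Ctnnb1 on the opposite strand and had 12497 counts over all embryos. The strand setting of the counting is not given in the sources used here, so reads of the pair may not be separated.

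The scaffolds of the destruction complex were not called in the fit to all 19 embryos. Axin1 lies on chromosome 17 (26138688 to 26195811, plus strand) and had group means of 12.4 to 20.0 CPM. Its log2 stage difference was 0.57 (SE 0.29; adjusted p = 0.201) in the Alyref cross and 0.42 (SE 0.33; adjusted p = 0.864) in the Gabpb1 cross. WT blastocysts were within 19.1 to 19.6 CPM of each other.

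Axin2 lies on chromosome 11 (108920349 to 108950783, plus strand) and was low everywhere, at a mean of 0.550 FPKM. It stood at 3.32 and 4.49 CPM in Alyref KO morulae and at 1.31, 0.679 and 5.99 CPM in their non-KO siblings. Morulae labelled Gabpb1 KO held 1.73, 1.21 and 1.28 CPM, from 13 to 20 counts each, below both Alyref KO embryos. That difference, -1.47 on the log2 scale (SE 0.75), had an adjusted p of 0.287. Stage differences were 0.38 (SE 0.66) and -0.44 (SE 0.75), and blastocysts overlapped morulae in both crosses.

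Tcf7l1, the repressor of the TCF family, lies on chromosome 6 (72626378 to 72789254, minus strand). It was at 3.45 CPM in 1 Alyref-cross non-KO morula and at 0.218 and 0 CPM in the other two. All 3 morulae labelled Gabpb1 KO, at 0.433, 0.0931 and 0.571 CPM, were below both non-KO morulae at 2.003 and 2.065 CPM, a log2 difference of -2.42 (SE 1.22; adjusted p = 0.298) resting on 1 to 8 counts in the labelled KO embryos. WT blastocysts were the highest group, at 11.0, 7.79 and 14.1 CPM, above all Alyref-cross blastocysts (2.76, 1.997 and 4.68 CPM). That last difference was -1.81 (SE 1.00; adjusted p = 1 and unadjusted p = 0.0896). Gabpb1-cross blastocysts were spread from 1.19 to 12.3 CPM.

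Counted together, 0 of the 8 members other than Wls were called in any of the 10 contrasts at an adjusted p under 0.05 in edgeR's quasi-likelihood test. Of all genes tested, 13.0% were called between blastocysts and morulae of the Alyref cross (5.62% higher and 7.43% lower), where 3 members (Wnt3a, Wnt6 and Wnt7b) had an unadjusted p under 0.05 and DESeq2 called the same 3 genes. Of all genes, 31.1% had an unadjusted p under 0.05 there and DESeq2 called 20.3%. In the Gabpb1 cross, 0% of all genes were called for stage, and the comparison of the stage differences called 0.00543%, which is Wls itself, with 0 members at an unadjusted p under 0.05 in either. Between the KO groups 4.57% of all genes were called, and Ctnnb1 was the 1 member at an unadjusted p under 0.05. The shares for all genes were 0.228% for Alyref KO, 1.65% for labelled Gabpb1 KO, 0.907% for the difference of the KO effects and 1.85% between the non-KO morulae, and 0% for each cross against WT blastocysts. At an unadjusted p under 0.05 these held 1 (Ctnnb1), 0, 0, 1 (Ctnnb1), 0 and 0 members, and DESeq2 called Ctnnb1 between the KO groups and otherwise 0 outside the Alyref-cross stage comparison. Between the KO groups 20.5% of all genes had an unadjusted p under 0.05 and DESeq2 called 9.22%. With so few genes called in most comparisons, a count of 0 of 8 is close to the background.

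The signs of the stage differences are given as a description, beside the median of all genes. Tcf7l1 passed the filter of 1 FPKM in at least 2 embryos through blastocysts alone. It reached at most 0.899 FPKM in morulae, so the filter favours its upward sign. All 8 fitted log2 differences were above 0 in the Alyref cross, with a median of 0.95 against -0.04 over all genes tested, and 5 of 8 were above 0 in the Gabpb1 cross, with a median of 0.78 against 0.02. With scaling to the ERCC spike-in, Ctnnb1 and Axin2 turned below 0 in the Alyref cross and Axin1 in the Gabpb1 cross.

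**Figure D4:**
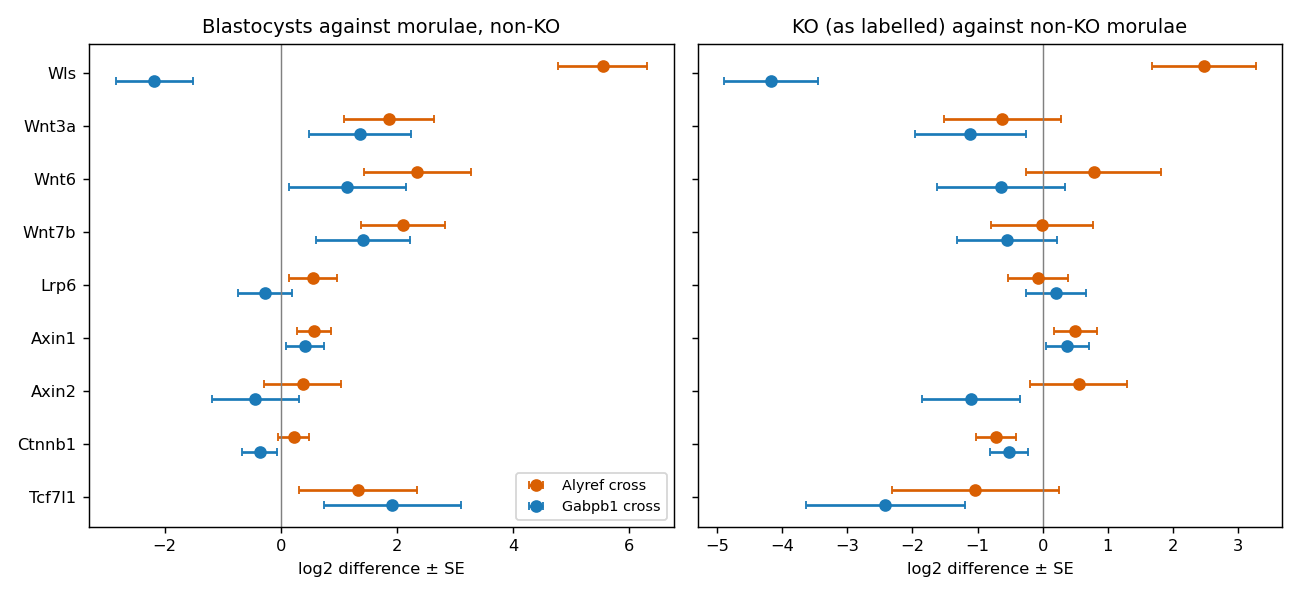
Log2 differences with SE for Wls and the 8 other members, for blastocysts against morulae (left) and KO as labelled against non-KO morulae (right), in the Alyref and Gabpb1 crosses. Wls lies on opposite sides of 0 in the 2 crosses in both panels, and Wnt3a, Wnt6 and Wnt7b lie above 0 for stage in both crosses.

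Calls for the 8 members changed when Alyref-cross non-KO morula 3 was left out, as did those over all genes. Which embryo of the group was highest was not counted over all genes. This embryo held the highest level of its group for 7 of the 8, all but Ctnnb1. It also held the highest trophectoderm marker sum of that group, 2602 CPM. Without it, 24.8% of all genes were called between blastocysts and morulae of that cross, against 13.0% with it, and 5 members were called higher in Alyref-cross blastocysts: Tcf7l1 (adjusted p = 0.00869), Wnt7b (log2 difference 3.36, adjusted p = 0.00574), Wnt3a (2.73, adjusted p = 0.0353), Axin2 (1.78, adjusted p = 0.0483) and Axin1 (0.88, adjusted p = 0.0473). Tcf7l1 and Wnt7b were then also called higher in the Gabpb1-cross than in the Alyref-cross non-KO morulae, where calls over all genes went from 1.85% to 13.2%. Morulae 1 and 2, which were left in the group, held 4 and 0 Tcf7l1 counts, so no fold is given for Tcf7l1. Its filter was passed through blastocysts alone, which favours a call higher in blastocysts. Leaving out the embryo with the highest level raises such differences by construction. Without the second morula labelled Gabpb1 KO, which enters the stage comparison through the shared estimate of spread alone, 2 members (Wnt3a and Wnt7b) were called for it, beside 15.5% of all genes. The Wls level of Alyref-cross non-KO morula 3, 0.456 CPM, was close to that of morula 1, 0.437 CPM. Whether the marker content of morula 3 has a part in these calls was not tested.

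A list of 97 other Wnt pathway genes was read beside the members, of which 96 were found by symbol and 44 passed the filter on low values. None of the 16 other Wnt ligands passed it; the most abundant, Wnt10b, had a mean of 0.259 FPKM and reached 2.08 FPKM in 1 embryo. Of the secretion machinery 9 of 9 genes were tested, and Snx3, a retromer-associated sorting nexin, was the most abundant at a mean of 512 FPKM. Of receptors, 4 of 17 were tested and Ryk led at 20.8 FPKM. The leading genes of the other lists were the Dickkopf-like Dkkl1 (129 FPKM), the casein kinase Csnk1e (20.3 FPKM), the co-repressor Tle4 (21.3 FPKM) and Sall4 (11.7 FPKM).

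Between blastocysts and morulae of the Alyref cross, 7 of these 44 genes were called, 4 higher and 3 lower, beside 13.0% of all genes (5.62% higher and 7.43% lower), a share close to this background. The Frizzled receptor gene Fzd3 stood at 23.6, 31.5 and 20.1 CPM in morulae and at 8.49, 8.49 and 8.87 CPM in blastocysts (log2 difference -1.54, SE 0.28; adjusted p = 0.0078). Of the genes listed as receptor-level inhibitors, Dkkl1 and Dkk1 were called higher. Dkkl1 stood at 29.8, 33.3 and 132 CPM in morulae and at 318, 345 and 227 CPM in blastocysts (2.19, SE 0.46; adjusted p = 0.0114), and morula 3 was again the high one.

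Dkk1, a secreted inhibitor that binds Lrp6, stood at 4.75, 1.10 and 3.26 CPM in these morulae and at 25.7, 16.6 and 37.0 CPM in these blastocysts (3.10, SE 0.75; adjusted p = 0.0192). Like Wls, Dkk1 was higher in non-KO morulae of the Gabpb1 cross (32.6 and 17.8 CPM) than in the other 8 morulae, of which the highest was 9.26 CPM. Unlike Wls, it was not lower in the Gabpb1-cross blastocysts, at 24.3, 34.7 and 56.8 CPM, and was highest in WT blastocysts, at 47.6, 129 and 111 CPM.

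The co-repressor gene Ctbp2 rose by 1.10 (SE 0.26; adjusted p = 0.0183) and Ryk by 0.97 (SE 0.30; adjusted p = 0.0418). Notum, which encodes an enzyme that removes the lipid of Wnt proteins, was called lower (adjusted p = 0.0277), but from 12, 48 and 0 counts in morulae to 1, 0 and 0 in blastocysts, so no fold is given. No blastocyst of any group held more than 1 Notum count. Notum therefore passed the filter of 1 FPKM through morulae alone, and the filter favours its call as lower in blastocysts. The remaining gene called lower was Tmed5, at -0.90 (SE 0.25), a cargo receptor of the early secretory pathway. These calls depended on single embryos: 4, 1 and 14 of the 44 genes were called without Alyref-cross non-KO morula 1, 2 or 3, 2, 3 and 3 without blastocyst 1, 2 or 3 of that cross, and 11 without the first or the second morula labelled Gabpb1 KO. Calls over all genes moved too, to 4.64%, 2.01% and 24.8% without these morulae, 2.29%, 2.4% and 6% without these blastocysts and 16.7% and 15.5% without the labelled Gabpb1 KO morulae. Fzd3 was called in each of these. With scaling to the ERCC spike-in 1 gene (Notum) was called, and with the compared groups fitted alone 0. For these settings the shares of all genes called are not given here, so the loss is not a result about Wnt genes.

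The morulae labelled Gabpb1 KO differed from Alyref KO morulae in 5 of the 44 genes, 3 higher and 2 lower, where 2.05% of all genes were called higher and 2.51% lower. Porcn, the acyltransferase that attaches the lipid to Wnt proteins and lies on the X chromosome, stood at 27.2, 86.0 and 56.1 CPM against 6.11 and 10.1 CPM (log2 difference 2.79, SE 0.50; adjusted p = 0.00687). Vps35, of the retromer that recycles Wls, stood at 297, 367 and 316 CPM against 139 and 112 CPM (1.38, SE 0.23; adjusted p = 0.00393). Dkkl1 was higher by 1.96 (SE 0.54; adjusted p = 0.0495). Non-KO morulae of the Gabpb1 cross also lay above those of the Alyref cross for Dkkl1, at 189 and 258 CPM against 29.8, 33.3 and 132 CPM, and for Vps35, at 326.5 and 432 CPM against 242 to 280 CPM. For Porcn the non-KO morulae overlapped, at 23.1 and 27.8 CPM in the Gabpb1 cross against 34.8, 28.7 and 18.6 CPM in the Alyref cross.

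The genes lower in morulae labelled Gabpb1 KO were both from the list of Dishevelled and destruction complex genes. Csnk1d, a casein kinase, held 23.7, 20.2 and 25.9 CPM against 122 and 73.4 CPM (-2.06, SE 0.29; adjusted p = 0.00179), and Btrc, the substrate receptor of the ubiquitin ligase for beta-catenin, was lower by a log2 difference of -1.19 (SE 0.28; adjusted p = 0.0259). Non-KO morulae lay the same way for Btrc, at 245 and 335 CPM in the Gabpb1 cross against 384 to 559.5 CPM in the Alyref cross. For Csnk1d the KO effects also differed between the crosses. Alyref KO morulae were above their non-KO morulae (38.5, 56.4 and 39.6 CPM), and morulae labelled Gabpb1 KO were below theirs (43.8 and 49.0 CPM), with a difference of KO effects of -2.11 (SE 0.41; adjusted p = 0.0277). It was the 1 gene of the 44 called there, beside 0.907% of all genes. That call was lost without Alyref KO morula 1, Alyref-cross non-KO morula 1 or either Gabpb1-cross non-KO morula. Between the KO groups, 2 genes (Csnk1d and Vps35) were called without Alyref KO morula 1 and 1 gene (Csnk1d) without morula 2. With ERCC scaling, or with the compared groups fitted alone, 0 genes were called in either comparison. The shares of all genes called with these settings are not given here, so the loss is not a result about Wnt genes.

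**Figure D5:**
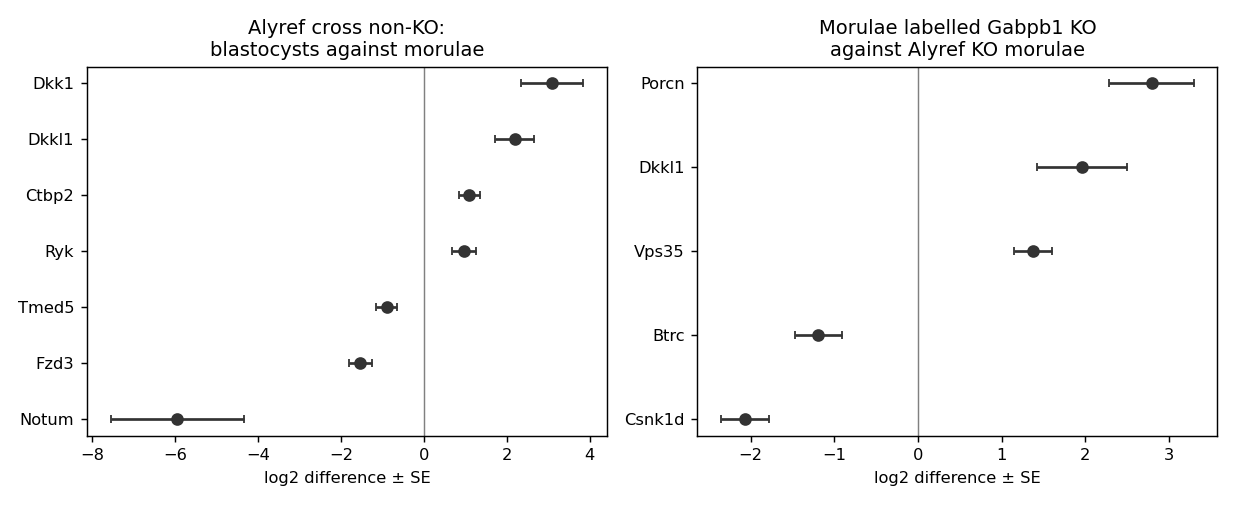
Log2 differences with SE of the other Wnt pathway genes called at an adjusted p under 0.05, for Alyref-cross non-KO blastocysts against morulae (7 genes, left) and for morulae labelled Gabpb1 KO against Alyref KO morulae (5 genes, right). Dkk1, Dkkl1, Ctbp2 and Ryk lie above 0 at left, where the fitted value of Notum rests on 0 to 1 counts per blastocyst and is no measured fold, and Porcn, Dkkl1 and Vps35 lie above 0 at right.

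In the remaining comparisons 0 of the 44 genes were called by edgeR's quasi-likelihood test. At an unadjusted p under 0.05 there were 7 genes for Alyref KO, 11 for labelled Gabpb1 KO, 4 for stage in the Gabpb1 cross, 8 for the difference of stage differences, 11 between the non-KO morulae and 2 and 3 against WT blastocysts for the Alyref and Gabpb1 crosses. Of all genes, 12.1%, 18.9%, 6.72%, 13.8%, 22.4%, 2.94% and 6.1% had an unadjusted p under 0.05 in these comparisons, in the same order. DESeq2 called 5, 4, 1, 0, 4, 0 and 0 of the 44 genes, and 2.66%, 6.87%, 0.277%, 1.86%, 9.2%, 0.0815% and 0.212% of all genes.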

How the data were processed

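PolyA RNA of 19 single embryos was sequenced as paired reads of 50 and 25 bases after 16 PCR cycles, per the labels' protocols. The authors deposited 1 table of raw counts per gene. Its name announces FPKM, but its values are whole numbers. Per the submitters' processing notes, Trimmomatic, Trim Galore, cutadapt, STAR and featureCounts were used with mm10. Of the gene identifiers, 50604 were also in GENCODE M21 with the same coordinates, including 8 of the 9 members. Wnt7b carries another version of its identifier.

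Genes with at least 1 FPKM, computed from counts and merged exon length, in at least 2 embryos were tested (18410 of the 39262 that had counts). edgeR 4.0.16 (R 4.3.3) was fitted with TMM, 1 mean for each of 7 groups and its quasi-likelihood test. P-values were adjusted by Benjamini-Hochberg over all genes tested, and genes under 0.05 were called. SE is the size of the log2 difference over the square root of F. Alternatives were DESeq2 1.42.0, other scalings and filters, the replicate number as a block, the compared groups alone and each embryo left out. Depth was 7.49 to 31.5 M gene counts, and without molecular identifiers any limit from counts covers counting error only. Named pathway genes are up to 5 called per comparison by adjusted p and the most abundant gene of each list; Tmed5 was added after its values were seen. The members, lists and tests were chosen with earlier results of these data known. Summed marker lists were trophectoderm, epiblast, primitive endoderm, cumulus and maternal oocyte genes. Epiblast markers summed to 619 to 1460 CPM, primitive endoderm markers to 299 to 1496 CPM and maternal oocyte mRNAs to 1.10 to 16.6 CPM over all embryos.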

Additional observations from a re-analysis of the deposited data

Results flagged for a closer look

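Of the values described above, 3 were marked because an effect differed between the crosses. The log2 stage difference of Wls differed by -7.72 (SE 1.01), Gabpb1 minus Alyref cross, and this is the value that chose the gene. The KO effect of Wls differed by -6.64 (SE 1.07). It uses the same non-KO morulae, so it is not a separate observation.

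The KO effect of Csnk1d differed by -2.11 (SE 0.41; adjusted p = 0.0277, edgeR's quasi-likelihood test). No group has more than 3 embryos, so single embryos were not screened as outliers.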

How the results depend on the processing

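Of 43 log2 differences of the members followed through 26 alternatives, 28 kept their sign, 15 changed it in at least 1, and 8 were called in an alternative alone. The stage difference of Wls was -7.91 with the replicate block, -7.76 with the compared groups alone and -8.28 to -6.83 with 1 embryo left out. Wls between the KO groups ran from -0.94 to 0.16. The replicate numbers are not stated to pair embryos. Correlations of same-numbered embryos, in their deviations from group means, were -0.12 to 0.165. With no more than 3 embryos in a group, these values cannot decide whether embryos are paired. With the block, 1 member (Wnt7b) was called for stage in the Alyref cross and 2 pathway genes for the difference of KO effects.

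DESeq2 called 1 member between the KO groups and 3 for Alyref-cross stage; no filter gave 1 for the latter. Of the 44 pathway genes DESeq2 called 5 for Alyref KO, 4 for labelled Gabpb1 KO, 2 for the difference of KO effects, 9 between KO groups, 11 and 1 for stage in the Alyref and Gabpb1 crosses and 4 between non-KO morulae (2 without a filter). Of all genes, DESeq2 called 2.66%, 6.87%, 4.86%, 9.22%, 20.3%, 0.277% and 9.2% in these comparisons, in the same order. ERCC scaling and the compared groups alone each gave 0 for the difference of KO effects and 0 between KO groups, and 1 and 0 for Alyref-cross stage. Shares of all genes called with those settings are not given here. With 1 embryo left out, members called were 0 to 1 between KO groups, 0 to 5 for Alyref-cross stage and 0 to 2 between non-KO morulae. Pathway genes called were 0 to 1 for each KO comparison and for the difference of stage differences, 0 to 3 for the difference of KO effects, 1 to 5 between KO groups, 1 to 14 for Alyref-cross stage and 0 to 5 between non-KO morulae. The cause was not tested, except that fewer embryos enter when groups are fitted alone.

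Signs turned for Wnt7b in Alyref KO with RLE scaling (0.0098), the block (0.47) and DESeq2 (0.023), and for Tcf7l1 there with the block (0.30). ERCC scaling turned Ctnnb1 (-0.13) and Axin2 (-0.30) for Alyref-cross stage, Axin1 (-0.50) for Gabpb1-cross stage and Lrp6 (-0.22) for labelled Gabpb1 KO. It moved the median of all genes to -0.34, -0.86 and -0.40 in these comparisons. With 1 embryo left out, Alyref KO differences ran from -1.14 to 0.24 for Wnt3a, -0.85 to 1.57 for Wnt6, -0.91 to 1.23 for Wnt7b, -0.69 to 0.45 for Lrp6 and -1.86 to 2.17 for Tcf7l1. Labelled Gabpb1 KO differences ran from -1.41 to 1.14 for Wnt6, -1.08 to 0.23 for Wnt7b, -1.76 to 0.20 for Axin2 and -0.15 to 0.66 for Lrp6. Stage differences of Axin2 ran from -0.050 to 1.78 (Alyref cross) and -1.11 to 0.85 (Gabpb1 cross), and of Lrp6 from -0.61 to 0.19 (Gabpb1 cross). Depth limits the members that had single embryos with few counts, as Tcf7l1 and Wls did in morulae, with 0 to 8 counts.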
